A study of Homo sapiens with 16 samples.

Results

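The genes described here encode the subunits of the mitochondrial respiratory chain and ATP synthase that are made from nuclear DNA. They were taken from the deposited gene count table by symbol: NDUF followed by A, B, C, S or V and a number, SDHA to SDHD, UQCR, COX4 to COX8 subunit symbols, and ATP5. The rule found 84 of the 25728 rows, of which 75 passed the filter on low counts and were tested. The symbols are the older ones used in the table, so that ATP5B, for example, is the gene now called ATP5F1B. The rule reads only names, and no measured value chose a member.

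The study treated Kelly and LAN-1, both human neuroblastoma lines with amplified MYCN, with GSK126, which blocks the histone methyltransferase activity of EZH2. Each line received 2 uM GSK126 or the solvent DMSO for 2 or 5 days, and RNA-seq was done on duplicates. The 8 groups were thus Kelly with DMSO at day 2, Kelly with DMSO at day 5, Kelly with GSK126 at day 2, Kelly with GSK126 at day 5, and the same 4 for LAN-1, with 2 libraries in each group and 16 in all. Each line stands for 1 tumour, all groups carry MYCN amplification, and the labels do not say whether duplicates came from separate cultures, so p-values measure only the spread between these libraries, which may be technical.

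Library totals ran from 912095 reads, in GSK126 day 5 replicate 2 of LAN-1, to 1666190. Adrenergic neuroblastoma markers were detected in both lines (10 of 10), with summed levels of 6874 to 9420 CPM (reads of a gene scaled to the library's size) in Kelly and 3614 to 4234 in LAN-1. Mesenchymal markers summed to 265 to 752 CPM in Kelly, where COL1A2 was at 0, and to 1119 to 1522 in LAN-1. Summed markers of other cell types reached at most 8.51 CPM for blood cells, 5.10 for epithelium, 18.3 for Schwann and glial cells and 17.2 for endothelium in any library.

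Electrons enter the chain from NADH at complex I and from succinate at complex II, pass through coenzyme Q to complex III and through cytochrome c to complex IV, which reduces oxygen. Complexes I, III and IV pump protons, and complex V, the ATP synthase, uses the resulting gradient to make ATP. Complexes I, III, IV and V also contain subunits encoded in mitochondrial DNA, which were not analysed here, so that nuclear and mitochondrial genes must be expressed together. Many of the nuclear genes have promoters with sites for NRF1, for ETS proteins such as GABPA, and for YY1.

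Promoter sequences were at hand in RefSeq (GRCh38.p14) for 65 of the 84 members, each covering 250 bases before and 50 after the gene's start. They were searched on both strands for the letters GCATGCGC (NRF1), CCGGAAG (ETS) and AAGATGGC (YY1), which do not overlap one another as words. The NRF1 word was in 13 of 65 member promoters (20%), against 3.27% of all 27305 promoters and 5.71% of the 9520 promoters of genes tested here. The ETS word was in 18 (27.7%), against 10.7% and 20.1%, and the YY1 word in 11 (16.9%), against 3.03% and 5.72%. At least 1 of the 3 words was in 32 members (49.2%), against 15.6% and 28.4%. The upstream 250 bases of 6 members are given to show what these words look like in place and because the genes are described below. Beyond the word counts above, no result was computed from the sequences. ATP5J holds all 3 words. ATP5G2 and ATP5G1 encode the same mature protein and differ in the NRF1 word. COX5B and ATP5I were the 2 members furthest below LAN-1 in Kelly, and NDUFS8 was the one member called after GSK126. Sequences run 5′ to 3′ along the gene's strand, and capitals mark the searched words on either strand.
ATP5J (chr21:25735055-25735304, minus strand): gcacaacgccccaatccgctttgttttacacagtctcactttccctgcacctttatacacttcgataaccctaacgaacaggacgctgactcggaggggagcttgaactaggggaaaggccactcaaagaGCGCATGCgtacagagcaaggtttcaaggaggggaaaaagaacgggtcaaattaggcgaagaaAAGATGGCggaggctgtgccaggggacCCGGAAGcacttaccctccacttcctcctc
ATP5G2 (chr12:53676084-53676333, minus strand): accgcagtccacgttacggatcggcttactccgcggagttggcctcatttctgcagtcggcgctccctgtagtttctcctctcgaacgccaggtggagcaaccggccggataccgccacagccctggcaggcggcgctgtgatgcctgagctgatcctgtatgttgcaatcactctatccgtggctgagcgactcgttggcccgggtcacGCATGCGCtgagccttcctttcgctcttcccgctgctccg
ATP5G1 (chr17:48892537-48892786, plus strand): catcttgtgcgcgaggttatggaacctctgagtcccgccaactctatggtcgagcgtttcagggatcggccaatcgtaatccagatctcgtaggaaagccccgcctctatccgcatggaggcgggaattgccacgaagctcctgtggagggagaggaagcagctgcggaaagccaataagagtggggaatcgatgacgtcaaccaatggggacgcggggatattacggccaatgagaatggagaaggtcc
COX5B (chr2:97645812-97646061, plus strand): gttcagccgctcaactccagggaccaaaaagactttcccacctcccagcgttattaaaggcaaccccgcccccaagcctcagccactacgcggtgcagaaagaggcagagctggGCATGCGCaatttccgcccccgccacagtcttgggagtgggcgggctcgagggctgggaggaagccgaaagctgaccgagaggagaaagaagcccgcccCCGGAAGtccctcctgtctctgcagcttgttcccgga
ATP5I (chr4:674277-674526, minus strand): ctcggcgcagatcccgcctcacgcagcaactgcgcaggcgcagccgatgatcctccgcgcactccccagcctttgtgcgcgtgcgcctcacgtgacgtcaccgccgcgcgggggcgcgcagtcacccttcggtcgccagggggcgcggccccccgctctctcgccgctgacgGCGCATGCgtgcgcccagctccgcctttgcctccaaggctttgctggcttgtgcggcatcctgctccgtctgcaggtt
NDUFS8 (chr11:68030431-68030680, plus strand): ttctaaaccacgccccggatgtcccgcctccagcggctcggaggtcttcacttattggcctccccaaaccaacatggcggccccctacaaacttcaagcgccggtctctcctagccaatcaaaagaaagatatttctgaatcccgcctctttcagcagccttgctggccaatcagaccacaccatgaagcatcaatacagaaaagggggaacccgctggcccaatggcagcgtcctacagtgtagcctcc
ATP5I holds an ETS word as well, after its start and so not printed. No searched word was in the printed bases of ATP5G1 or NDUFS8, which says nothing of other spellings or of sites elsewhere.

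The summed level of the members was 7427 to 7992 CPM in the 8 Kelly libraries and 6330 to 6633 CPM in the 8 LAN-1 libraries, with no overlap. In the deposited counts this was 0.756% to 0.789% of all reads in Kelly and 0.622% to 0.660% in LAN-1. In bulk RNA such a level cannot separate less RNA per cell from fewer cells of a kind.

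By complex, the summed CPM of complex I was 2523 to 2846 in Kelly and 2179 to 2350 in LAN-1. Complex III, which hands electrons to cytochrome c, summed to 880 to 1041 CPM in Kelly and 647 to 716 in LAN-1. Complex IV summed to 1062 to 1141 and 915 to 1025 CPM, and complex V to 2494 to 2680 and 2095 to 2369 CPM. Complex II, the one complex with no subunit from mitochondrial DNA, summed to 259 to 287 CPM in Kelly and 241 to 308 in LAN-1, so that its ranges overlapped. The sums of the other 4 complexes were higher in every Kelly library than in any LAN-1 library. A sum leans on its most abundant members and does not speak for each subunit. In complex IV much of the gap lay in NDUFA4, at 193 to 242 CPM in Kelly and 105 to 127 in LAN-1. The sum without NDUFA4 was not computed, so the separation of complex IV may rest on that gene.

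**Figure D1:**
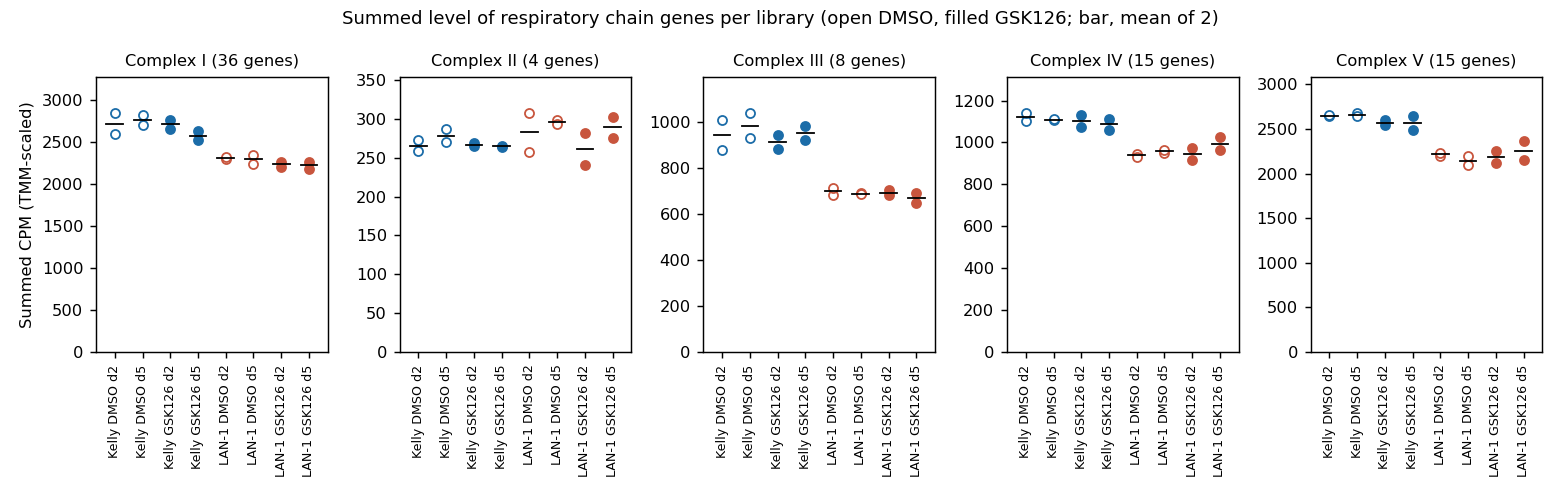
Summed CPM of the members of each complex (vertical axis, from 0) in each of the 16 libraries, grouped by line, treatment and day, with open points for DMSO, filled points for GSK126 and a bar at the mean of 2. Kelly lies above LAN-1 for complexes I, III, IV and V and overlaps it for complex II, while DMSO and GSK126 points lie close together within each line.

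Compared per kilobase of transcript, ATP5B, the catalytic beta subunit of ATP synthase, had the highest mean level, at 437 CPM per kilobase over the 16 libraries. It was followed by NDUFS5, an accessory subunit of complex I, at 400 CPM per kilobase, ATP5G2, which encodes the c subunit of the rotor ring, at 339, and UQCRH, the hinge subunit of complex III, at 280. The lowest tested members were ATP5S, which is coupling factor B and not a core subunit, at 2.57, and the complex I accessory subunits NDUFV3 at 5.58, NDUFA9 at 11.9 and NDUFB5 at 13.0 CPM per kilobase. Lengths were those of the GENCODE canonical transcripts, except for NDUFB6, for which the longest transcript (1366 bases) was used. Canonical transcripts are long for some members (8356 bases for NDUFA9 and 5725 for NDUFV3), so that levels per kilobase are too low wherever shorter transcripts are in use.

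Of the paired isoforms of complex IV, the widely expressed copy carried nearly all reads. COX6A1 had 1241 reads over all libraries, COX6B1 1737, COX7A2 2054, COX7B 2778 and COX8A 2834. Their muscle or testis counterparts had far fewer: COX6A2 and COX7B2 had 0, COX8C 2, COX7A1 7 and COX6B2 13. A count of 0 allows up to 3 reads, as counting error only. Outside the name rule, COX4I1 had 3430 reads against 20 for COX4I2, and NDUFA4, a member that is now assigned to complex IV, had 3660 against 30 for its paralogue NDUFA4L2.

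The 9 members that were not tested were these 5 isoforms together with ATP5EP2 (4 reads), ATP5L2 (4), UQCRBP1 (9) and ATP5E (10). ATP5EP2 and UQCRBP1 are pseudogenes of ATP5E and UQCRB. ATP5E encodes the epsilon subunit of ATP synthase, and the table also held a row for the read-through gene SLMO2-ATP5E, with 0 reads. Read-through rows of 2 other members, ATP5J2-PTCD1 and NDUFC2-KCTD14, were likewise at 0. UQCRHL is a near copy of UQCRH, and its reads and those of UQCRH are uncertain, since how such reads were counted is not given in the sources used here. Exons of 25 members overlap another row of the table in GENCODE, 20 of them on the opposite strand, and without a stated strand setting those reads cannot be assigned with certainty.

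GSK126 left nearly all members without a called difference. In Kelly at day 5, 1 of 75 members (1.33%) was called at an adjusted p under 0.05 (edgeR's quasi-likelihood test, Benjamini-Hochberg adjustment over all 11863 genes tested), against 4.9% of all genes (1.6% lower, the direction of that member). In LAN-1 at day 5 none was called, against 3.66% of all genes. At day 2 none was called in either line, where 0.177% of all genes were called in Kelly and 0.152% in LAN-1. Averaged over the 4 GSK126 effects, none was called, against 6.47% of all genes.

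The medians of the members were near 0. On the log2 scale, the median member differed by -0.01 (day 2) and -0.03 (day 5) in the Kelly comparisons and by -0.03 (day 2) and 0.03 (day 5) in the LAN-1 comparisons, and the corresponding medians of all genes were 0.01, 0.01, 0.00 and 0.00. The 95% interval of the fold change lay wholly within 1.5-fold in either direction for 58, 55, 51 and 44 of 75 members in that order, and for 72 of 75 for the mean of the 4 effects. At an unadjusted p under 0.05 there were 2, 6, 1 and 9 members in the 4 comparisons and 4 for the mean, or 2.67%, 8.00%, 1.33%, 12.0% and 5.33%, against 7.48%, 16.5%, 6.23%, 16.7% and 18.9% of all genes. DESeq2 called no member in any of them. The GSK126 effects of a line at both days use separate DMSO libraries, but the mean reuses all of them.

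NDUFS8, a core iron-sulfur subunit of complex I, was the member called in Kelly at day 5. Its level was 82.2 and 85.1 CPM in the DMSO libraries and 56.6 and 50.4 CPM in the GSK126 libraries. Both GSK126 libraries lay below both DMSO libraries, and NDUFS8 fell by 0.65 on the log2 scale (SE 0.17, edgeR adjusted p = 0.00889), a fold of 0.638 with a 95% interval of 0.505 to 0.806. Markers moved in the same comparison: 6 of 8 tested mesenchymal markers rose (median of the list 1.31), 6 of 10 adrenergic markers fell and 1 rose (median -0.48), and the endothelial gene KDR rose (2.66, edgeR adjusted p = 0.00673). Their part in the NDUFS8 result was not tested. The NDUFS8 call was lost without DMSO day 5 replicate 2 (log2 -0.62, edgeR adjusted p = 0.115), without GSK126 day 5 replicate 2 (-0.57, edgeR adjusted p = 0.163), and with DESeq2 (-0.65, adjusted p = 0.211).

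At day 2 the Kelly levels of NDUFS8 were 62.9 and 70.5 CPM with DMSO and 74.1 and 54.9 with GSK126, which overlap. In LAN-1 they were 30.1, 25.8, 28.6 and 35.3 CPM in the DMSO libraries of day 2 and then day 5, and 28.6, 26.3, 35.7 and 40.8 with GSK126 in the same order. The LAN-1 difference at day 5 was 0.25 ± 0.23 (log2, SE; edgeR adjusted p = 0.644). The difference between the lines' day 5 effects on NDUFS8 was -0.90 ± 0.29 (edgeR adjusted p = 0.0870), which did not pass the threshold. The other 6 core subunits of complex I encoded in the nucleus were not called in Kelly or LAN-1.

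**Figure D2:**
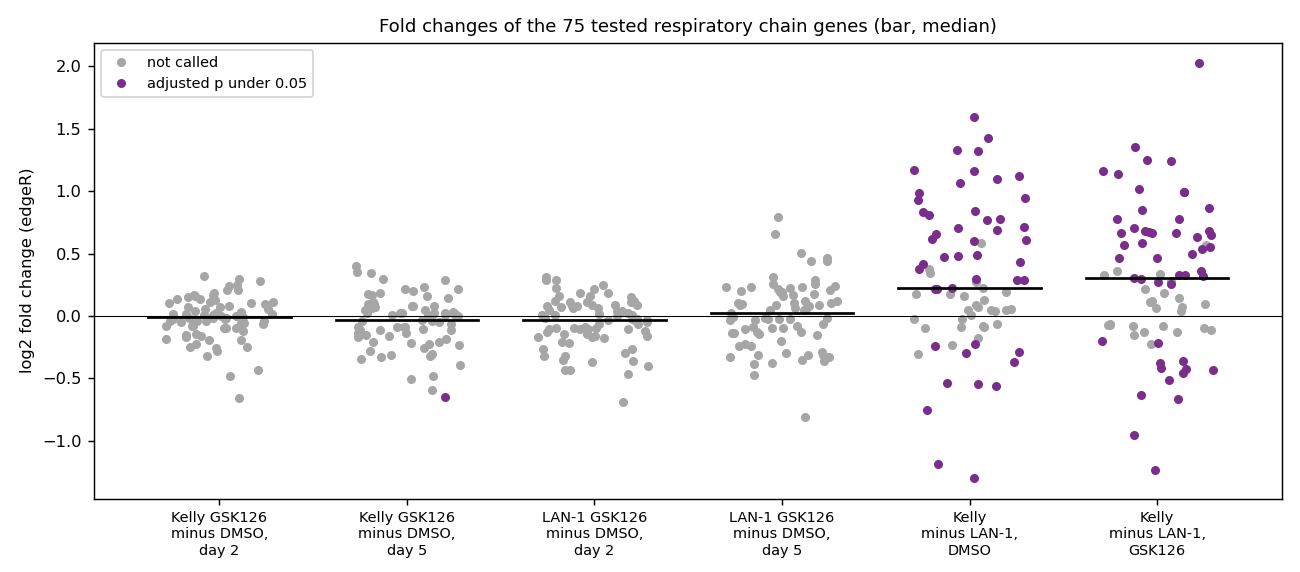
Log2 fold changes (vertical axis) of the 75 tested members in the 4 GSK126 comparisons and between the lines in DMSO and in GSK126 libraries, 1 point per member, with purple points for an adjusted p under 0.05 and a bar at the median. The GSK126 comparisons centre near 0 with 1 purple point, NDUFS8 in Kelly at day 5, while between the lines 47 and 50 members were called.

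Where no member was called, the members of smallest p were as follows. In Kelly at day 2, NDUFA5, an accessory subunit of complex I, was at 154 and 135 CPM with DMSO and 118 and 93.8 with GSK126 (log2 -0.43 ± 0.14, SE; edgeR adjusted p = 0.263). UQCRQ of complex III was at 51.2 and 63.1 CPM against 49.6 and 33.2 (-0.48 ± 0.19; edgeR adjusted p = 0.501). In both genes the GSK126 libraries lay below the DMSO libraries, but neither passed the threshold.

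In LAN-1 at day 2, UQCR10, a small subunit of complex III, was at 66.0 and 81.5 CPM with DMSO and 50.6 and 58.0 with GSK126 (-0.43 ± 0.18; edgeR adjusted p = 0.691). ATP5I, the e subunit of ATP synthase, was at 85.2 and 83.5 CPM against 70.2 and 65.0 (-0.32 ± 0.16; edgeR adjusted p = 0.799). Neither difference passed the threshold.

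In LAN-1 at day 5, ATP5D, the delta subunit of ATP synthase, was at 30.6 and 36.1 CPM with DMSO and 42.0 and 67.2 with GSK126 (0.65 ± 0.22; edgeR adjusted p = 0.0805). The highest of the 4 values came from the shallowest library, GSK126 replicate 2. The DMSO libraries of day 2 in LAN-1 were at 42.3 and 41.4 CPM, near the lower of the GSK126 values at day 5. With GSK126 replicate 1 left out the difference was 1.01, and over all alternatives tried it ran from 0.34 to 1.01. Leaving out a library here and below leaves a group of 1, which the fit assumes to vary like the other groups. NDUFS1, the largest core subunit of complex I, was at 299 and 265 CPM with DMSO and 237 and 215 with GSK126 (-0.31 ± 0.11; edgeR adjusted p = 0.0971).

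For the mean of the 4 effects, NDUFA12, an accessory subunit of complex I, had a log2 difference of -0.27 ± 0.09 (edgeR adjusted p = 0.0571) and NDUFA5 one of -0.22 ± 0.08 (edgeR adjusted p = 0.0981). Over all libraries of a line, NDUFA12 lay between 35.2 and 68.0 CPM (Kelly) or 51.8 and 68.3 CPM (LAN-1). With 1 library left in a group, under the same assumption, some differences were larger. NDUFA12 was at -0.32 without DMSO day 2 replicate 1 of Kelly and at -0.31 without GSK126 day 5 replicate 2 of LAN-1. NDUFA5 was at -0.29 without GSK126 day 5 replicate 2 of Kelly and at -0.32 without GSK126 day 5 replicate 1 of LAN-1. Over all 23 alternatives tried, NDUFA12 ran from -0.32 to -0.19 and NDUFA5 from -0.32 to -0.16. Of these alternatives, 3 put NDUFA12 past the threshold and 2 put NDUFA5 past it.

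The difference between the lines in the day 5 effect of GSK126 was called for no member, against 1.85% of all genes. At an unadjusted p under 0.05 there were 6 members (8.00%, against 13.1% of all genes). DESeq2 called none. NDUFV1, the core subunit that binds NADH, was at 123 and 124 CPM with DMSO and 108 and 96.2 with GSK126 in Kelly, and at 58.5 and 80.7 against 90.2 and 98.1 in LAN-1. GSK126 libraries were thus lower in Kelly and higher in LAN-1 at day 5, and the difference of effects was -0.72 ± 0.22 (edgeR adjusted p = 0.0563). The DMSO libraries of day 2 were at 94.3 and 130 CPM in Kelly and at 90.9 and 86.9 in LAN-1. In LAN-1 these day 2 DMSO values lay near those with GSK126 at day 5. For the core subunit NDUFS7 the Kelly values were 61.3 and 65.0 against 47.5 and 42.0 CPM and the LAN-1 values 22.3 and 27.7 against 32.2 and 39.7, a difference of effects of -1.01 ± 0.32 (edgeR adjusted p = 0.0770). On all 16 libraries NDUFV1 was past the threshold with RLE scaling (-0.74, edgeR adjusted p = 0.0474) and with no filter on low counts (-0.76, edgeR adjusted p = 0.0356). Without DMSO day 5 replicate 2 of LAN-1, NDUFV1 was at -0.95. Without GSK126 day 5 replicate 1 of LAN-1, NDUFV1 was at -0.79 and NDUFS7 at -1.18. Over all alternatives tried, NDUFV1 ran from -0.95 to -0.49 and NDUFS7 from -1.18 to -0.71. Of the 75 members, 20 had a 95% interval within 1.5-fold for this difference of effects, so that it was measured less closely than the effects themselves.

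Some of the members named above have GC-rich transcripts: 60.6% GC for NDUFV1, 63.5% for NDUFS8, 66.9% for NDUFS7 and 69.5% for ATP5D. Others do not, with 41.8% for NDUFS1, 42.7% for NDUFA12 and 34.6% for NDUFA5. Members were split at the median GC content of 47.2%. At day 5 the 37 richer members had a median log2 difference after GSK126 of -0.10 for Kelly and 0.09 for LAN-1. The 38 poorer ones were at 0.01 and -0.08. At day 2 the richer members were at -0.003 for Kelly and -0.10 for LAN-1, and the poorer ones at -0.03 and 0.07. From day 2 to day 5 with DMSO, richer and poorer medians were 0.02 and -0.04 in Kelly and -0.11 and 0.02 in LAN-1. Without 1 library the day 5 medians after GSK126 moved. In LAN-1 the richer members were at 0.05 without GSK126 replicate 2 and at 0.18 without replicate 1, where the poorer ones were at -0.01. In Kelly the richer members were at -0.05 without DMSO replicate 2, and the poorer ones at -0.02 without GSK126 replicate 2. Replicates of a group also differed by GC content, in no single direction: replicate 2 minus replicate 1 was higher for the richer than for the poorer members in 5 of 8 groups and lower in 3. In the day 5 groups, the medians for richer and poorer members were 0.05 and -0.003 (Kelly DMSO), -0.08 and 0.08 (Kelly GSK126), 0.06 and 0.03 (LAN-1 DMSO) and 0.12 and -0.06 (LAN-1 GSK126). The part of GC content in the results was not tested beyond the offset that follows. With it, the day 5 medians of richer and poorer members were -0.08 and -0.02 for Kelly and -0.01 and 0.02 for LAN-1. With an offset for GC content, the day 5 difference of NDUFS8 in Kelly was -0.59 (edgeR adjusted p = 0.00836) and so still called. For ATP5D in LAN-1 it was 0.38 (edgeR adjusted p = 0.432), and the differences of effects became -0.50 for NDUFV1 (edgeR adjusted p = 0.258) and -0.71 for NDUFS7 (edgeR adjusted p = 0.325).

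**Figure D3:**
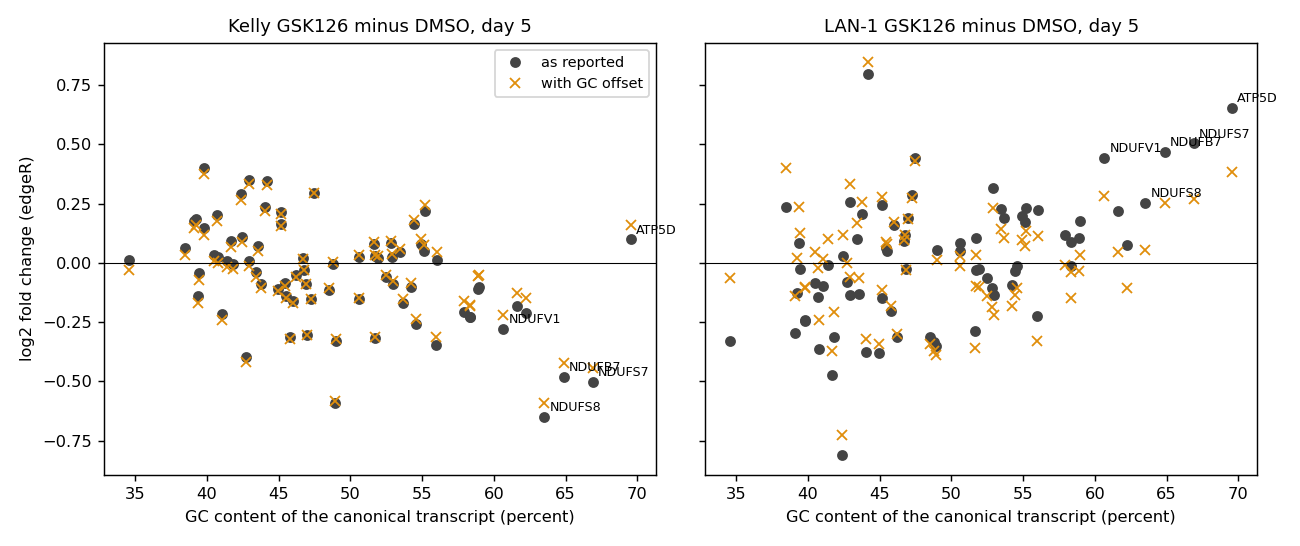
Log2 fold change of each tested member after 5 days of GSK126 (vertical axis) against the GC content of its canonical transcript in percent (horizontal axis), for Kelly (left) and LAN-1 (right), as reported (points) and with a GC offset (crosses). The GC-rich members NDUFS7, NDUFB7 and NDUFV1 lie below 0 in Kelly and above 0 in LAN-1, and the crosses lie nearer to 0 than the points for these 3. ATP5D, also GC-rich, lies above 0 in Kelly as well, where its cross (0.16) lies further from 0 than its point (0.10).

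Days in culture alone gave no called member. Between day 2 and day 5 with DMSO, 0.438% of all genes were called in Kelly and 0.438% in LAN-1, and no member in either. At an unadjusted p under 0.05 there were 2 and 5 members, or 2.67% and 6.67%, against 7.70% and 7.35% of all genes, and DESeq2 called none. In Kelly the smallest p values were those of NDUFB8 (85.4 and 94.0 CPM at day 2, 114 and 114 at day 5; log2 0.34 ± 0.14, edgeR adjusted p = 0.490) and NDUFS4 (44.02 and 41.4, then 38.9 and 24.3; -0.46 ± 0.22, edgeR adjusted p = 0.628). In LAN-1 they were those of UQCR10 (66.0 and 81.5, then 48.1 and 48.7; -0.60 ± 0.18, edgeR adjusted p = 0.142) and NDUFB6 (19.2 and 23.8, then 39.7 and 32.8; 0.77 ± 0.25, edgeR adjusted p = 0.223). NDUFB8, NDUFS4 and NDUFB6 are accessory subunits of complex I.

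The lines themselves differed in most members. With DMSO, 47 of 75 members (62.7%) were called between Kelly and LAN-1, against 67.7% of all genes, so the share was near that of the genome. Of these, 36 were higher in Kelly and 11 lower, whereas 34.2% of all genes were higher and 33.5% lower. The median member was 0.22 higher in Kelly on the log2 scale, and the median of all genes 0.02. In 39 of the 47, no Kelly DMSO library overlapped a LAN-1 DMSO library. The same count was not made over all called genes, so it marks no trait of the members. This comparison sets 1 line against the other, with 4 libraries each.

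The GSK126 libraries, which the DMSO comparison did not use, gave a like result: 50 of 75 members were called, against 66.3% of all genes, 37 higher and 13 lower in Kelly, where 34.3% of all genes were higher and 32% lower. All 47 members called with DMSO had the same direction with GSK126, and 43 were called in both. This is no independent repeat, since the lines are the same and GSK126 left nearly all members without a called difference. In 34 of the 47 the lines did not overlap in either treatment, again with no count over all called genes to set beside it.

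The counts by complex that follow stand beside 34.2% of all genes higher and 33.5% lower in Kelly. Complex I had 18 members higher in Kelly and 7 lower of 36 tested. NDUFA3, an accessory subunit, was at 35.9, 43.3, 47.8 and 50.5 CPM in the Kelly DMSO libraries and 11.5, 15.6, 13.9 and 18.5 in those of LAN-1, the largest difference of any member (log2 1.59 ± 0.18, SE; edgeR adjusted p = 4.32e-14). Its exons overlap those of TFPT on the other strand. NDUFS8 followed within the complex (1.33 ± 0.14; edgeR adjusted p = 6.91e-16), from the DMSO values given above, with every Kelly value above every LAN-1 value.

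NDUFB1, an accessory subunit, was at 26.1, 24.1, 20.9 and 22.5 CPM in Kelly and 12.2, 10.2, 6.27 and 9.24 in LAN-1 (1.33 ± 0.23). NDUFS7 was at 52.1, 68.6, 61.3 and 65.0 CPM against 33.9, 27.8, 22.3 and 27.7 (1.17 ± 0.15). Each of these genes was more than 2 times higher in Kelly. NDUFB2 was at 53.0, 46.4, 50.1 and 51.7 CPM against 23.7, 22.4, 19.5 and 26.9 (1.12 ± 0.16). NDUFA9 was at 130, 154, 126 and 140 CPM against 73.0, 67.9, 55.7 and 63.0 (1.10 ± 0.10). For both, the lines again stood fully apart.

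In the other direction, NDUFS1 was at 161, 142, 164 and 161 CPM in Kelly and 229, 261, 299 and 265 in LAN-1 (-0.75 ± 0.08; edgeR adjusted p = 3.73e-15). The accessory subunits NDUFB10 (-0.56 ± 0.11), NDUFV3 (-0.54 ± 0.16), NDUFA6 (-0.54 ± 0.10) and NDUFB11 (-0.22 ± 0.09) were also lower in Kelly, with DMSO libraries that did not overlap. RNA levels of subunits that are needed in equal numbers did not shift alike between the lines. Among the 7 core subunits, 4 were higher and 1, NDUFS1, was lower in Kelly. Since 67.7% of all genes were called between the lines, these counts mark no trait of the complex. NDUFB11 (edgeR adjusted p = 0.0245) was not called with DESeq2 (adjusted p = 0.0987), with no filter on low counts (edgeR adjusted p = 0.0508), or without any 1 of 4 libraries: DMSO day 2 replicate 1 or DMSO day 5 replicate 1 of Kelly, or DMSO day 2 replicate 2 or DMSO day 5 replicate 2 of LAN-1 (edgeR adjusted p from 0.0754 to 0.150). NDUFV3 was not called in the GSK126 libraries.

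In complex II, SDHA, the flavoprotein that oxidises succinate, was lower in Kelly (-0.24 ± 0.09; edgeR adjusted p = 0.0117) and the iron-sulfur subunit SDHB higher (0.29 ± 0.12; edgeR adjusted p = 0.0307). In both, some libraries overlapped. The membrane anchors SDHC (-0.09, 95% interval -0.34 to 0.16) and SDHD (-0.08, 95% interval -0.46 to 0.30) were not called.

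In complex III, 5 of 8 members were higher in Kelly and none lower. UQCRFS1, the Rieske iron-sulfur protein, was at 71.9, 59.4, 66.5 and 70.5 CPM in Kelly and 24.97, 23.1, 27.2 and 23.5 in LAN-1 (1.43 ± 0.15; edgeR adjusted p = 6.48e-16). Over all libraries UQCRFS1 lay between 55.5 and 71.9 CPM in Kelly and between 22.8 and 35.6 in LAN-1. The core protein UQCRC1 (0.70 ± 0.09) and the hinge subunit UQCRH (0.62 ± 0.09) were higher with less difference, and the core protein UQCRC2 (0.18 ± 0.09; edgeR adjusted p = 0.0577) was not called.

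In complex IV, 5 of 10 tested members were higher and 2 lower in Kelly. NDUFA4 ran from 193 to 242 CPM over the Kelly libraries and from 105 to 127 over those of LAN-1 (with DMSO 0.95 ± 0.09; edgeR adjusted p = 4.04e-19), and COX8A from 124 to 179 against 94.7 to 112 (0.69 ± 0.09). COX5B, a subunit on the matrix side, went the other way, at 47.6, 40.8, 37.4 and 40.7 CPM in the Kelly DMSO libraries and 101, 82.2, 96.1 and 98.3 in those of LAN-1 (-1.19 ± 0.12; edgeR adjusted p = 3.16e-16). Its partner subunit COX5A was 0.22 ± 0.09 higher in Kelly. COX7B was lower in Kelly, at 111, 115, 103 and 109 CPM against 129, 140, 160 and 138 (-0.37 ± 0.09). The isoforms COX6A1 (0.01 ± 0.13) and COX7A2 (0.05 ± 0.10) were not called.

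In complex V, 6 of 14 tested members were higher and 1 lower in Kelly. ATP5I was at 30.5, 36.5, 34.4 and 32.2 CPM in Kelly and 85.2, 83.5, 81.5 and 80.7 in LAN-1, the largest difference downward among the members (-1.30 ± 0.13; edgeR adjusted p = 3.51e-16). The catalytic subunit ATP5B was 0.42 ± 0.06 higher in Kelly, and ATP5J, whose promoter holds all 3 searched words, did not pass the threshold (0.04, 95% interval -0.18 to 0.27).

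The 3 genes for the c subunit differed to unequal degrees. ATP5G1 was at 86.3, 104, 88.2 and 96.7 CPM in Kelly and 41.0, 42.1, 40.4 and 45.4 in LAN-1 (1.16 ± 0.12; edgeR adjusted p = 8.66e-16). ATP5G2 was at 204, 248, 226 and 230 CPM against 201, 181, 168 and 195, a smaller difference (0.29 ± 0.08; edgeR adjusted p = 0.000646). ATP5G3, at 143, 149, 153 and 131 against 140, 140, 137 and 138, was not called (0.05, 95% interval -0.12 to 0.23). The 95% intervals of ATP5G1 (0.93 to 1.40) and ATP5G2 (0.14 to 0.45) do not overlap, though the difference between the 3 genes was not itself tested.

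**Figure D4:**
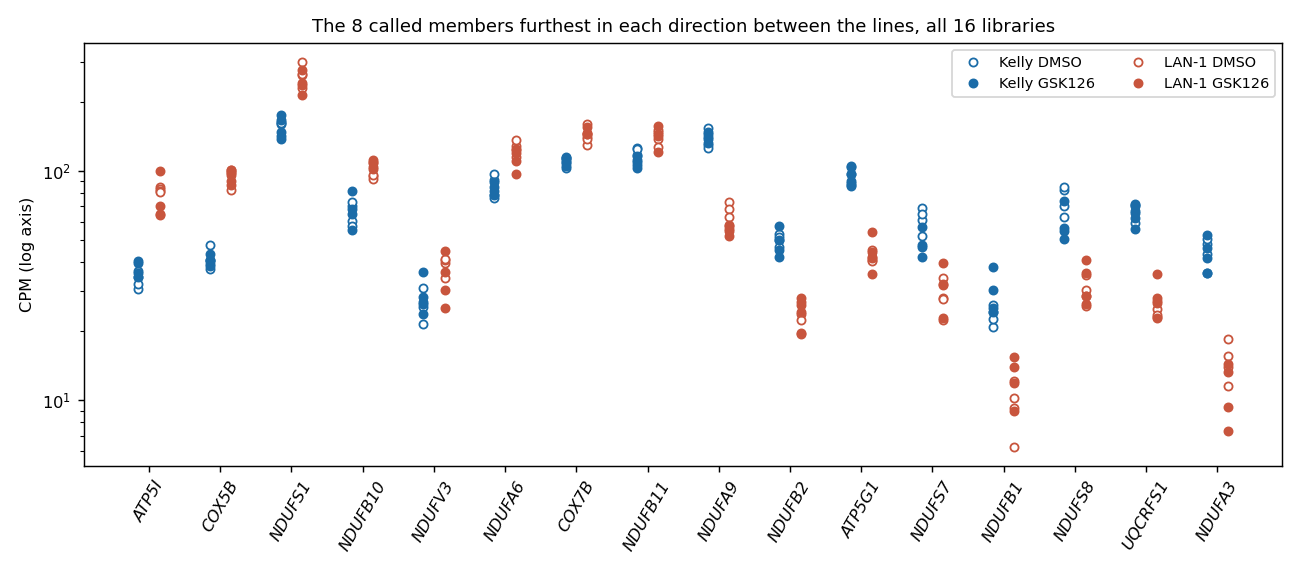
CPM on a log axis in all 16 libraries for the 8 called members furthest below and the 8 furthest above LAN-1 in Kelly whose DMSO libraries do not overlap, in order of the difference, with open points for DMSO and filled points for GSK126. From ATP5I to NDUFB11 most Kelly points lie below those of LAN-1, and from NDUFA9 to NDUFA3 every Kelly point lies above every LAN-1 point.

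Members were next set beside their neighbours on the chromosome (GRCh37), as up to 10 tested genes on either side that are no members. Of the 47 members called with DMSO, 36 lay on the same side of 0 as the median of their neighbours, 27 of the 36 higher and 9 of the 11 lower in Kelly. The same count was not made for other genes, so it cannot be read as particular to the members. Medians of all tested genes differed by chromosome, from -0.79 on chromosome 20 to 0.52 on chromosome 19. COX5B on chromosome 2 was at -1.19 where its neighbours had a median of -1.59, and 19 of those 20 neighbours were called lower. ATP5I on chromosome 4 was at -1.30 against a median of -1.39, with 13 of 17 neighbours called lower. NDUFB10 on chromosome 16 (-0.56 against -0.56) and NDUFS1 on chromosome 2 (-0.75 against -0.62) were likewise close to their neighbours.

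Other members stood away from theirs. ATP5G1 on chromosome 17 was at 1.16 where its neighbours had a median of 0.12, NDUFS8 on chromosome 11 at 1.33 against 0.20, and UQCRFS1 on chromosome 19 at 1.43 against 0.25. For NDUFS7 on chromosome 19 (1.17 against -0.18) and NDUFA6 on chromosome 22 (-0.54 against 0.27) the neighbours' median had the opposite sign. No DNA copy number was analysed here, and its part in the differences between the lines was not tested.

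**Figure D5:**
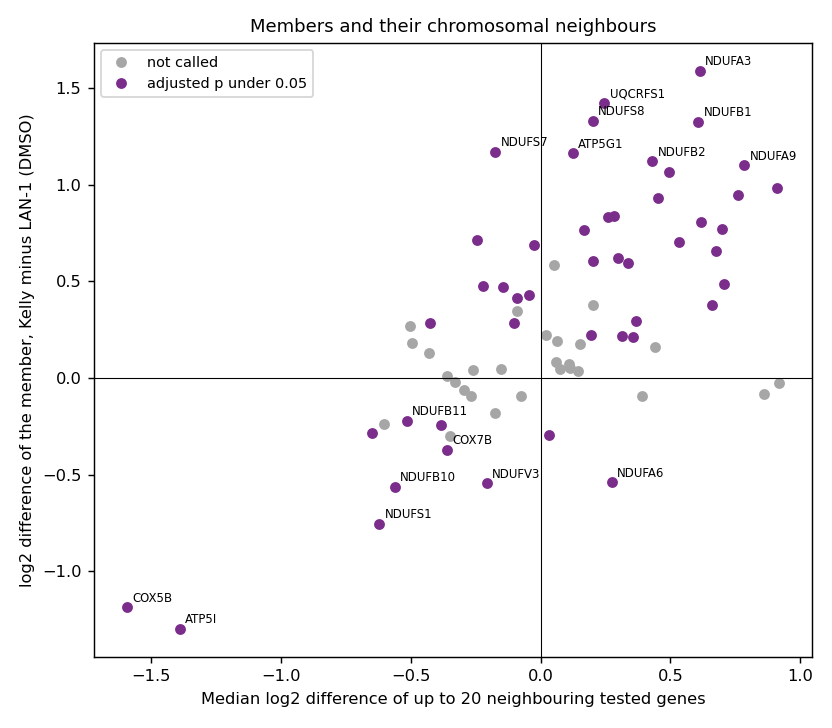
Log2 difference between Kelly and LAN-1 with DMSO for each tested member (vertical axis) against the median of up to 20 neighbouring tested genes (horizontal axis), with purple points for an adjusted p under 0.05. COX5B and ATP5I lie far below 0 on both axes, while UQCRFS1, NDUFS8, ATP5G1 and NDUFS7 lie above 1 on the vertical axis with neighbours near 0.

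Genes around the chain were read from lists of related functions, and their counts between the lines stand beside 34.2% of all genes higher and 33.5% lower in Kelly. Of 8 tested subunits and carriers that the name rule misses, 5 were higher and 2 lower in Kelly with DMSO, among them COX4I1 (1.20 ± 0.09) and CYCS, which is cytochrome c (1.13 ± 0.08). Assembly factors of complex I had 3 higher and 3 lower of 14. The 3 of smallest p were NDUFAF5 (-1.04 ± 0.20), ECSIT (0.63 ± 0.19) and NDUFAF3 (0.68 ± 0.23). Assembly factors of complexes II to V had 8 higher and 5 lower of 28. The 3 of smallest p were all lower: UQCC1 (-1.71 ± 0.13), LRPPRC (-0.54 ± 0.06) and COA5 (-1.86 ± 0.23). These assembly factors were not set beside their chromosomal neighbours. None of these 3 lists had a gene called after GSK126 in either line, at either day or in the mean.

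Regulators of mitochondrial biogenesis had 5 higher and 6 lower of 17 between the lines. In LAN-1 at day 5 of GSK126, 1 of the 17 was called, where 3.66% of all genes were. This was TFAM, which packages mitochondrial DNA and helps to start its transcription. TFAM fell by 0.53 on the log2 scale (SE 0.14, edgeR adjusted p = 0.0124). It was also lower in the mean of the 4 effects (-0.23 ± 0.07; edgeR adjusted p = 0.0169), where 6.47% of all genes were called. Of 26 genes of the TCA cycle and pyruvate entry, 2 were called in LAN-1 at day 5, against the same 3.66%. PDK1, a kinase that restrains pyruvate dehydrogenase, was lower (-0.77 ± 0.13; edgeR adjusted p = 1.94e-05) and PDP2, a phosphatase acting on the same enzyme, higher (0.49 ± 0.15; edgeR adjusted p = 0.0439).

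COQ3, an enzyme of coenzyme Q synthesis, was the one gene called of 13 in its list after GSK126, in LAN-1 at day 5 (-1.60 ± 0.47; edgeR adjusted p = 0.0336), against 3.66% of all genes. Of 15 carriers and transporters, UCP2 was lower in Kelly at day 5 (-0.80 ± 0.17; edgeR adjusted p = 0.000788), where 4.9% of all genes were called, and SLC25A13, an aspartate-glutamate carrier, in LAN-1 at day 5 (-0.68 ± 0.17; edgeR adjusted p = 0.00872), 1 gene of 15 in each. Of 10 genes of mitochondrial oxidative stress defence none was called after GSK126. Genes of these lists were not followed through the alternative settings, so how far their calls depend on the settings is not known. Over all genes in LAN-1 at day 5, DESeq2 called 154 in place of 434. Between the lines, TCA cycle genes were 11 higher and 8 lower, coenzyme Q genes 1 and 3, carriers 7 and 3 and oxidative stress genes 3 and 4.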

How the data were processed

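Gene counts of 16 RNA-seq libraries were analysed. The counts are whole numbers of reads per gene as deposited by the authors. The submitters' processing notes name FastQC, TopHat2, featureCounts and GRCh37 (hg19). The annotation, the strand setting and how reads with several matches were counted are not given in the sources used here.

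Genes passing filterByExpr (minimum count 10) were fitted in edgeR 4.0.16 (R 4.3.3) with TMM scaling, a mean per group and quasi-likelihood tests over all 16 libraries (8 residual degrees of freedom). Calls are at a Benjamini-Hochberg adjusted p under 0.05 over 11863 genes. CPM are TMM-scaled, and errors of fold changes are standard errors. Library totals were 912095 to 1666190 reads. On simulated counts for the Kelly day 5 comparison (11710 genes), 39 of 100 genes changed 1.5-fold and 59 of 100 changed 2-fold were recovered, with 5 false calls.

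Alternatives were RLE and upper quartile scaling, no filter, DESeq2 1.42.0, a GC offset, a replicate block, fits of 1 line alone and leaving out each library. The comparison of the lines in GSK126 libraries and a crossed replicate block were chosen after seeing the data. Members and lists were chosen with earlier results of these data known. Members were named where called after GSK126 or over time, as the 8 furthest in each direction between the lines with separate libraries, as the 4 highest and 4 lowest per kilobase, as isoform sets, as untested members, and as the 2 of smallest p in comparisons without a call; NDUFA4, COX5A, COX8A, COX6A1, COX7A2, ATP5B, ATP5J, UQCRC1, UQCRC2, UQCRH and the SDH genes were added in the line comparison for their complexes. Likeness of other genes to the members was not computed, because the group means split by line.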

Additional observations from a re-analysis of the deposited data

How the results depend on the processing

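Between the lines with DMSO, 38 to 50 members were called under every setting tried against 47 as reported: 38 with DESeq2, 41 with a replicate block and 41 to 46 without 1 library. Of 17 called member differences that were followed through the alternatives, 14 were called under every alternative, and none changed sign. Members added in the line comparison for their complexes, and ATP5G2, were not among these 17. They include calls near the threshold, such as SDHB (edgeR adjusted p = 0.0307) and COX5A (edgeR adjusted p = 0.0353). The exceptions among the 17 were NDUFS8 after GSK126, NDUFV3 and NDUFB11. Of these, the replicate block ended the calls of NDUFV3 (-0.39, edgeR adjusted p = 0.102, and -0.36, edgeR adjusted p = 0.116, with a GC offset) and NDUFB11 (-0.15, edgeR adjusted p = 0.247).

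Counts of members called after GSK126 are small, and a few settings moved them. In Kelly at day 5 the count was 1 as reported, 0 with DESeq2, 2 with a GC offset, 2 with a GC offset and replicate block, and 0 to 1 without 1 library. In LAN-1 at day 5 it was 0 as reported, 1 with a GC offset (ATP5G3, log2 0.40, edgeR adjusted p = 0.0341), 1 with a GC offset and replicate block, and 0 to 2 without 1 library (2 without GSK126 replicate 1). For the mean of the 4 effects it was 0 as reported, 1 with a GC offset (NDUFA12) and 0 to 1 without 1 library. For the difference between the lines' day 5 effects it was 0 as reported, 1 with RLE scaling, 1 with no filter (NDUFV1 in both) and 0 to 3 without 1 library (3 without GSK126 day 5 replicate 1 of LAN-1). The cause was not tested.

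Counts over all genes moved more. DESeq2 called 3 and 163 genes in Kelly at days 2 and 5 (21 and 581 as reported), 2 and 154 in LAN-1 (18 and 434), 289 for the mean (768), 73 for the difference of effects (220) and 15 and 22 over time in Kelly and LAN-1 (52 and 52). The GC offset gave 36 genes for LAN-1 at day 2 and 108 and 83 over time. Without 1 library, counts ran from 2 to 11 and from 239 to 355 in Kelly at days 2 and 5, from 3 to 14 and from 139 to 735 in LAN-1 at days 2 and 5, from 117 to 479 for the difference of effects, and from 10 to 40 and from 21 to 32 over time in Kelly and LAN-1.

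Between same-numbered replicates of a line, correlations of their deviations from the group mean ran from -0.20 to 0.15. The labels do not say whether libraries of the same number share a batch. With the replicate block no member call after GSK126 changed, and 8 genes in place of 21 were called in Kelly at day 2. With crossed numbers, 13 genes were called in Kelly and 18 in LAN-1 at day 2, none a member. At 2 libraries a group, members of low count had wide intervals.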
